A study of Saccharomyces cerevisiae with 2 samples.

Results

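The active mating-type locus of budding yeast, MAT, and its surroundings on chromosome III were examined as a stretch of 30 kb, from 185 to 215 kb in sacCer2 coordinates. Every predicted nucleosome centre in this interval was taken from the 4 lists of the series, which gave 744 of 8357 positions. The paired-end lists held 209 positions for total mononucleosomes and 197 for H2A.Z, and the single-end lists held 170 and 168. They were compared with the 6023 other positions between 30 and 286 kb, called the rest of the interior here, which leaves out both chromosome ends. Both libraries come from strain yFR212, which is MATa in the W303 background, is psi+ and GAL+, and carries 3 Myc epitopes on HTZ1, the gene of H2A.Z. Its further alleles are ura3-1, his3-11, 15, leu2-3, 112, ade2-1, can1-100 and trp1-1. For both libraries, cultures at an optical density (OD600) of 0.8 were crosslinked with 1% formaldehyde. Chromatin was cut for 20 min at 37 °C with micrococcal nuclease (MNase), an enzyme that cleaves the linkers between nucleosomes. The total library had no antibody, and the H2A.Z library was precipitated through the Myc tag of the H2A.Z protein. There was 1 library per group, so no difference between them has a replicate error or a test, and depth is unknown because the lists hold no read counts.

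MAT decides the mating type of a haploid cell. In an alpha cell it encodes MATALPHA1, an activator of alpha-specific genes, and MATALPHA2, a repressor of a-specific genes, while an a cell carries a different stretch there. Silent copies of both kinds of information lie near the ends of the same chromosome, at HML and HMR, and serve as templates when a cell switches type. H2A.Z is a histone variant known mainly from nucleosomes beside the nucleosome-free regions of gene starts, and in yeast it is also known for limiting the spread of silent chromatin. In the gene table of assembly R64, MATALPHA2 and MATALPHA1 follow BUD5, which encodes an exchange factor needed for bud-site selection, and precede YCR041W and TAF2, which encodes a subunit of the general transcription factor TFIID. The a-type genes HMRA1 and HMRA2 stand at HMR in this table, so the assembly has alpha genes at MAT where the strain is labelled MATa. The table belongs to another build than the lists, and positions were therefore not assigned to genes.

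The locus itself was nearly empty of predicted nucleosomes in all 4 lists. Between 198.5 and 201.5 kb the total library had 6 paired-end and 5 single-end positions, and the H2A.Z library had 7 of each. That is 2.00 and 2.33 positions per kb in the paired-end lists, against 7.51 and 7.23 in the rest of the interior. An isolated centre split the empty part. It lay at 199481 in the total paired-end list, at 199478 in the total single-end list, at 199485 in the H2A.Z paired-end list and at 199481 in the H2A.Z single-end list, a range of 7.58 bp, with standard errors of the centre from 3.90 to 7.33 bp. To its left the next centre was 828 to 873 bp away, and to its right 1660 to 1671 bp away. The isolated position was weak wherever it was called. It ranked 2255 of 2353, 1853 of 1881, 2188 of 2264 and 1830 of 1859 by score in those lists, in the order just given.

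**Figure D1:**
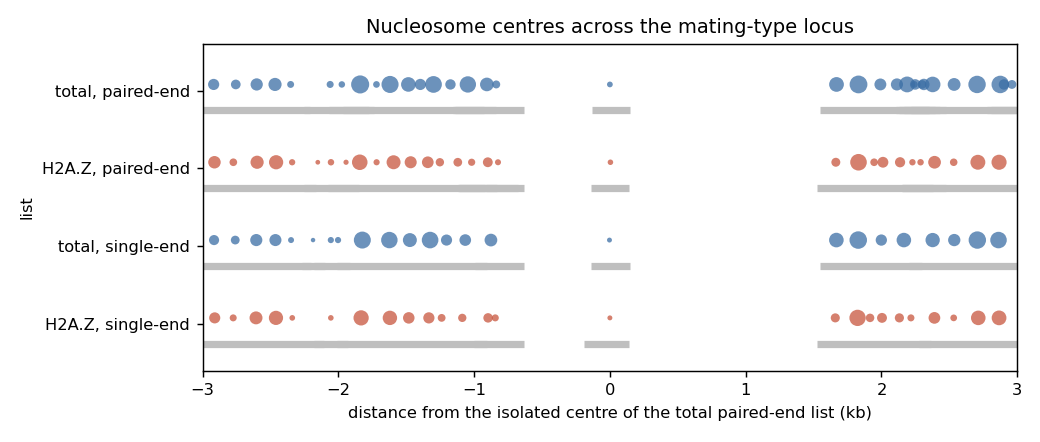
Nucleosome centres (dots, larger for a higher rank percentile in their list) and the read regions they were fitted in (grey bars) in the 4 lists, by distance in kb from the isolated centre of the total paired-end list. All 4 lists show 1 small dot between an empty stretch of 828 to 873 bp on the left and of 1660 to 1671 bp on the right.

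Some bounds of the read regions also repeated from list to list, although most varied more than the isolated centre. Over the 4 lists the end of its region ranged over 3 bp, its start over 58 bp and the start of the next region to the right over 21 bp. On the left a fitted region ended at base 198845 in every list. Over the whole chromosome this was the only region end shared to the base by all 4 lists, of 512 to 1095 distinct ends per list, and 2 region starts elsewhere were also shared by all 4. Between the paired-end lists of both libraries 26 ends and 36 starts coincided. The region of the isolated centre ended at 199628 in both total lists and at 199625 in both H2A.Z lists. To its right no fitted region began before 201025 in the total lists and 201004 in the H2A.Z lists, which left 1396 and 1378 bp outside any region. Both list types of 1 library come from the same DNA, while total and H2A.Z lists come from different libraries of 1 strain.

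Empty stretches also lay at the ends of the chromosome where the silent cassettes are found. The longest in the first 20 kb measured 1784 to 1793 bp over the 4 lists. The longest beyond 286 kb measured 659 to 665 bp, shorter than either stretch at MAT. Stretches over 1000 bp were present in the rest of the interior too. Leaving those out raised its paired-end density from 7.51 to 7.82 positions per kb (total) and from 7.23 to 7.52 (H2A.Z). The isolated centre at MAT also had an identifier out of order in the paired-end lists, 8 in total chromatin between neighbours numbered 370 and 371, and 6 in the H2A.Z library between 351.5 and 353. In the total list 6 entries had such identifiers, with centres at 12178, 12244, 50406, 199481, 292872 and 293045, and in the H2A.Z list 5 did, at 12180, 12246, 199485, 292873 and 293044. In the single-end lists 0 entries did. The files do not say what the identifier means. How reads that fit several cassettes, or the a-type sequence missing from the assembly's MAT, were placed is not given in the sources used here, and their part in the empty stretches was not tested.

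Counted over the interval, 4 of 208 neighbouring pairs in the total and 4 of 196 in the H2A.Z paired-end list lay more than 300 bp apart, or 1.92 and 2.04%. Over the whole lists the shares were 1.57 and 1.68%, so the number of such stretches was near the background. Stretches over 300 bp took up 10.6% of the interval in total chromatin and 10.5% for H2A.Z, against 6.82 and 6.74% of the rest of the interior, and the MAT segment alone held 2506 of 3168 bp and 2488 of 3143 bp. In single-end data the interval had 10.6% for both, against 7.64% elsewhere for total and 9.72% for H2A.Z. For H2A.Z single-end positions such stretches were fewer per 100 kb in the interval than elsewhere, 13.3 against 18.1.

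The other stretches over 300 bp had positions of higher rank at their edges than those at MAT. The total stretch from 211568 to 211893 (325 bp) had positions ranked 155 and 54 at its edges, and the H2A.Z stretch from 211575 to 211895 (320 bp) had ranks 88 and 27. The H2A.Z stretch from 185989 to 186325 (336 bp) was bounded by ranks 4 and 34. The total paired-end list had 1 centre in that stretch, at 186161, ranked 2308 of 2353. The total paired-end stretch from 192989 to 193327 (337 bp) had ranks 182 and 619 at its edges. Each of the other lists, of either library, had 1 centre inside it, of low rank. For H2A.Z these were at 193138 (paired-end, ranked 2257 of 2264) and 193209 (single-end, 1844 of 1859). The total single-end list had one at 193161, ranked 1880 of 1881. The next in length, at under 300 bp, was 197130 to 197421 (291 bp) in total chromatin, with ranks of 2147 and 2135 at its edges, and 206621 to 206913 (292 bp) in the H2A.Z library, with ranks of 96 and 90. At the long MAT stretch the edges ranked 2255 and 927 for total chromatin and 2188 and 1843 for H2A.Z.

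On the right of MAT the first positions were placed alike in all lists, and those after them were not. In total chromatin the first centres stood at 201150, 201312 and 201473, which is 162 bp apart each time, but the next distances of the paired-end list were 122 and 75 bp. The total single-end list had distances of 162, 170 and 166 bp. For H2A.Z the distances were 167, 116 and 64.6 bp in the paired-end list. In the single-end list they were 164, 91.3 and 88.7 bp. These single-end distances are uncertain, since the centres at 201305 and 201397 had standard errors of 23.7 and 8.67 bp. The second centre was the strong one. Its rank percentile, which runs from 0 for the lowest to 100 for the highest score of a list, was 90.9 in total chromatin and 78.4 for H2A.Z, whose centre lay at the same base, 201312. The first centre stood apart between libraries. It had a percentile of 60.6 in the total paired-end and 59.4 in the total single-end list, but of 18.6 and 19.3 in the H2A.Z lists.

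On the left the last centres before the empty part were at 198435, 198575 and 198644 in total chromatin, with percentiles of 75.9, 51.1 and 13.6. For H2A.Z they were at 198463, 198582 and 198657, with 9.90, 23.6 and 5.13. In the single-end lists the last centre before the gap was at 198605 for total chromatin and 198637 for H2A.Z. The edge centre thus ranged over 52.3 bp across lists on the left and over 8.83 bp on the right. The left range compares unlike entries. The total single-end list had 1 centre, at 198605, between the places of the total paired-end centres at 198575 and 198644.

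Spacing differed between the flanks more than between the interval and the rest of the interior. The median distance of neighbouring centres in the interval was 142 bp for total paired-end positions (95% interval over positions 134 to 153 bp) and 150 bp for H2A.Z positions (135 to 154 bp), against 136 bp (131 to 140 bp) and 139 bp (134 to 142 bp) elsewhere. Right of MAT, from 201.5 kb on, the medians were 155 bp (151 to 162 bp) and 160 bp (152 to 166 bp). Left of MAT, up to 198.5 kb, they were 125 bp (112 to 141 bp) and 131 bp (121 to 141 bp). These medians include overlapping centres under 100 bp apart, and flank medians without such overlaps are not given here. Distances of 140 to 200 bp, which are typical of neighbouring nucleosomes on yeast DNA, made up 60.9% of the right flank in total chromatin (56 of 92, Wilson interval 50.7 to 70.2%) and 67.9% in the H2A.Z library (57 of 84, 57.3 to 76.9%). On the left they made up 36.7% (40 of 109, 28.3 to 46.0%) and 38.5% (40 of 104, 29.7 to 48.1%). The rest of the interior had 41.4 and 42.9%.

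**Figure D2:**
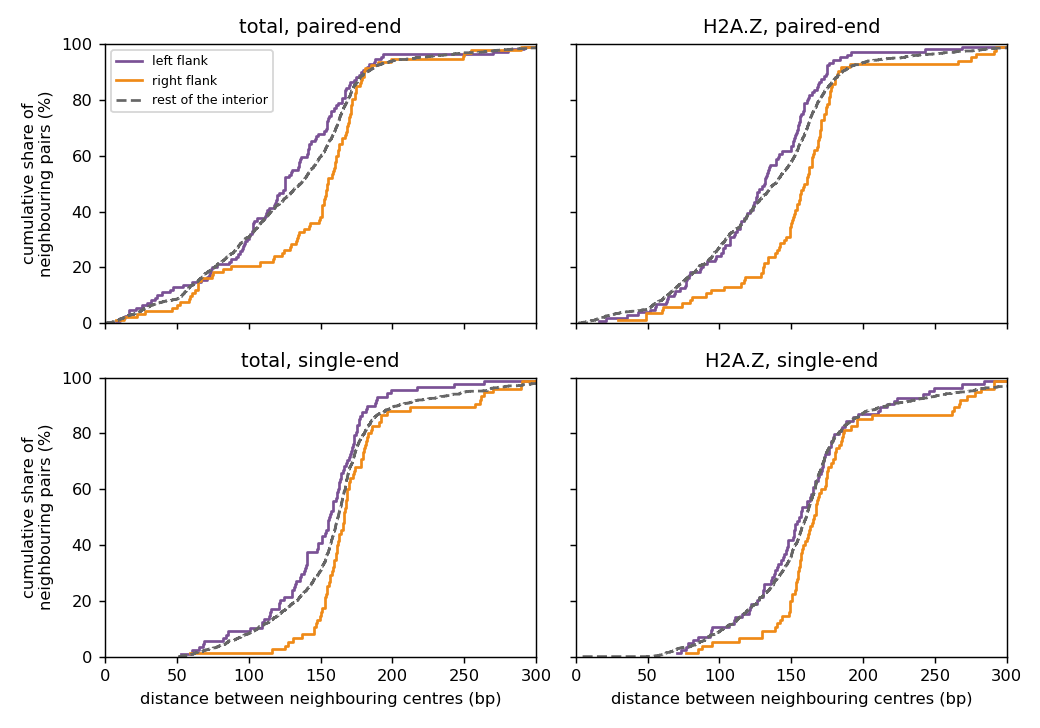
Cumulative share in percent of neighbouring pairs by the distance between their centres in bp, up to 300 bp, for the left flank, the right flank and the rest of the interior, in each of the 4 lists. The right-flank curve lies lowest between 100 and 150 bp in all panels, with medians of 155 and 160 bp in the paired-end lists against 125 and 131 bp on the left.

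The same order of the flanks was seen in single-end data, with smaller differences. There the share of 140 to 200 bp was 80.0% on the right (60 of 75, 69.6 to 87.5%) and 62.5% on the left (55 of 88, 52.1 to 71.9%) in total chromatin, and 74.7% (63.8 to 83.1%) and 56.0% (45.3 to 66.1%) in the H2A.Z library. These intervals take positions as independent and reflect counting error alone. Centres under 100 bp apart, which cannot both be occupied on a single DNA molecule, made up 18.9% of H2A.Z paired-end distances in the interval (37 of 196, 14.0 to 24.9%), against 27.2% (25.1 to 29.4%) elsewhere. In each of the 7 other stretches of 30 kb between 35 and 275 kb this share was higher, from 22.4 to 31.7%. Single-end H2A.Z positions did not show this, with 9.58% in the interval, within the 6.25 to 11.4% of those stretches. In the total paired-end list the share was 26.0% (54 of 208), within the 22.4 to 36.8% of those stretches.

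The most regular 5 kb of the interval lay from 205 to 210 kb. In that window 78.6% of the total and 79.3% of the H2A.Z paired-end distances fell between 140 and 200 bp, more than in any of the 44 windows of 5 kb outside the interval, where the share reached 70.0 and 74.2%. In the single-end lists the shares were 81.5 and 80.8%, and 4 and 3 of the 44 windows were higher. Distances under 100 bp made up 0% there in total chromatin and 3.45% for H2A.Z, in paired-end data. Positions of this window also recurred most often. A centre within 20 bp in all 3 other lists was found for 89.7% of its total and 86.7% of its H2A.Z paired-end positions, against at most 83.9 and 83.3% in the 44 windows. Over the whole lists these shares were 48.4 and 50.7%, and over the interval 56.9% (119 of 209) and 59.9% (118 of 197).

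A run of 10 total centres from 208164 to 209642 had every distance between 140 and 200 bp, with a mean of 164 ± 9.23 bp (SD over distances), and the H2A.Z single-end list had 10 from 208174 to 209640, with 163 ± 12.3 bp. These were the longest such runs of those lists in the interval. The longest of the H2A.Z paired-end list had 12 centres, from 191994 to 193825, with 166 ± 13.7 bp. In the total single-end list the longest had 15 centres, from 191805 to 194197, with 171 ± 8.84 bp. Regular rows were thus found on both sides of MAT, but both longest rows on the left ran through a centre of very low rank. It was at 193138 in the H2A.Z paired-end list (2257 of 2264) and at 193161 in the total single-end list (1880 of 1881). Without these centres both rows would be broken there.

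The window from 195 to 200 kb, which holds the left edge of the empty part, was at the other extreme. Distances of 140 to 200 bp made up 20.7% for total and 9.38% for H2A.Z in paired-end data, and 44.4 and 28.0% in single-end data. Of the 44 windows outside the interval 4 and 1 had lower shares in the paired-end lists, and 3 and 1 in the single-end lists. The window from 185 to 190 kb was the most crowded of the interval, with 9.80 total paired-end positions per kb, a density that 2 of the 44 windows exceeded. There 41.7% of total distances were under 100 bp.

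Fuzziness is given here as the spread (SD) of forward reads about their centre. Its median in the interval was 25.7 bp for total paired-end positions (25.1 to 26.6 bp) and 25.1 bp elsewhere. For H2A.Z paired-end positions it was 28.4 bp (27.3 to 29.3 bp), against 26.8 bp (26.5 to 27.1 bp) elsewhere and 26.1 to 27.8 bp in the 7 other stretches of 30 kb. The windows from 190 to 205 kb, which surround MAT, had H2A.Z medians of 29.5, 29.0 and 28.7 bp, above those of all 44 windows outside the interval, which reached 28.5 bp. Over paired-end positions matched within 20 bp, total medians in these windows were 25.6, 27.6 and 25.5 bp, against 24.9 bp in the rest of the interior. The H2A.Z medians of those pairs were 29.1, 29.3 and 27.2 bp, against 26.4 bp. Single-end data did not show wider H2A.Z positions in the interval, with 30.7 bp there (29.8 to 31.6 bp) and 30.8 bp elsewhere. Low score ranks came with the wider paired-end H2A.Z positions in the interval, where the H2A.Z median percentile was 43.7. The stretches of 30 kb from 215 kb and from 245 kb had percentiles as low, 43.2 and 41.8, with median SDs of 27.3 and 26.9 bp.

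In the paired-end lists the sharpest total position was at 213811, with an SD of 14.8 bp, and it was also the highest-scoring position of its list. The sharpest H2A.Z paired-end position was at 205823, with 14.1 bp and rank 120, against 22.2 bp at its total partner 3.34 bp away. The fuzziest total paired-end entry, at 202383 with 55.7 bp, had no single-end centre closer than 40.3 bp. For H2A.Z the fuzziest paired-end entry was at 206270 with 50.6 bp, and a single-end centre lay 0.796 bp from it. In the single-end lists 213811 was again the sharpest total position (15.5 bp), but 185984 (11.9 bp) was the sharpest for H2A.Z, and 188494 (66.6 bp) and 211061 (65.7 bp) were the fuzziest.

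The distance between forward and reverse read peaks, a measure of the length of protected DNA, was longest at the right end of the interval. From 210 to 215 kb its paired-end median was 136 bp for total and 134 bp for H2A.Z, and its single-end median 140.5 and 139.5 bp. In every list this was the highest of all 50 windows of 5 kb compared. The 44 windows outside the interval reached 132, 129, 134 and 133 bp, in the same order. Over the whole interval the medians were 127 bp (126 to 128 bp) and 125 bp (124 to 126 bp) in the paired-end lists, against 126 and 125 bp elsewhere. The sharp position at 213811 went against its surroundings, with 111 bp for total and 113 bp for H2A.Z in paired-end data.

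Score ranks rose and fell along the interval in the same places in both libraries. The median percentile of total paired-end positions was 39.0, 64.0, 38.7, 44.8, 74.6 and 61.4 in the 6 windows from 185 to 215 kb, and that of H2A.Z positions was 43.7, 54.7, 23.6, 34.2, 73.3 and 60.5. Both were thus lowest or nearly so around MAT and highest from 205 to 210 kb. For H2A.Z only 2 of the 44 windows outside the interval were lower than the one from 195 to 200 kb.

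**Figure D3:**
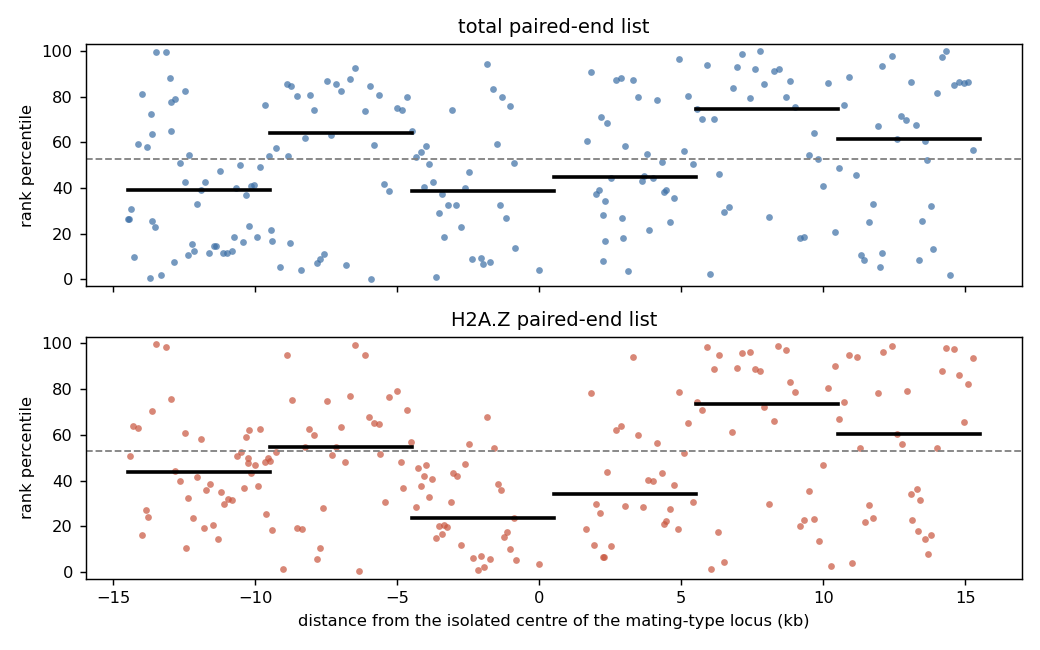
Rank percentile (0 lowest, 100 highest score of the list) of each paired-end position by distance in kb from the isolated centre at MAT, for each library. Black lines are medians of 5 kb windows and dashed lines the median of the rest of the interior. Both panels dip around MAT, where the window medians are 38.7 and 23.6, and peak at 74.6 and 73.3 to its right. In total chromatin the leftmost window is about as low as the one at MAT.

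Of the total positions in the interval 17 of 209 were in the top 10% of their list, or 8.13% (5.14 to 12.6%), against 9.99% of the whole list, and of the H2A.Z positions 20 of 197, or 10.2% (6.67 to 15.2%), against 9.98%. These shares were near the background, but the positions were placed unevenly. The right flank held 12 of 93 total positions in the top 10% (12.9%, 7.54 to 21.2%) and 15 of 85 H2A.Z positions (17.6%, 11.0 to 27.1%). The left flank held 4 of 110 (3.64%, 1.42 to 8.98%) and 5 of 105 (4.76%, 2.05 to 10.7%).

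The 5 highest-scoring total positions in the interval were at 213811, 207246, 185982, 186328 and 206622, ranked 1, 4, 10, 13 and 31 of 2353. The closest H2A.Z centres, at 0.127 to 6.72 bp, were ranked 50, 271, 4, 34 and 96 of 2264. For H2A.Z the 5 highest were at 185989, 192988, 207907, 211895 and 186325, ranked 4, 16, 22, 27 and 34. Their total partners, 1.10 to 6.72 bp away, ranked 10, 182, 186, 54 and 13. Of these 5 only the pair around the stretch from 185989 to 186325 was also among the 5 highest of total chromatin. In the single-end list of the same library each of the 10 had a centre within 7.83 bp, ranked no lower than 34.

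In paired-end lists H2A.Z positions lay at the places of total positions about as often as elsewhere, and in single-end lists more often. Within 20 bp of a total centre were 141 of 197 H2A.Z positions, or 71.6% (64.9 to 77.4%), against 69.4% of the whole list. Conversely 146 of 209 total positions, or 69.9% (63.3 to 75.7%), had an H2A.Z centre, against 67.9%. Between single-end lists the H2A.Z share was 88.7% (83.0 to 92.6%), against 82.3% in the rest of the interior. In the paired-end lists the right flank had the higher share, with 70 of 85 H2A.Z positions (82.4%, 72.9 to 89.0%), and the left flank had 65 of 105 (61.9%, 52.4 to 70.6%). The single-end lists did not show this difference. They had 76 mutually nearest pairs on the left flank, for 84 distances between neighbouring H2A.Z centres, and 69 pairs on the right, for 75 distances. Single-end positions had a paired-end centre of their own library within 20 bp in 85.3% of cases in total chromatin (145 of 170, 79.2 to 89.8%), against 81.8% of the whole list. For H2A.Z the share was 81.5% (137 of 168), against 81.1%.

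The ranks of matched positions were more alike in the interval than in the rest of the interior. Over 141 mutually nearest paired-end pairs the Spearman correlation between total and H2A.Z scores was 0.76, against 0.56 over 1112 pairs elsewhere and 0.36 to 0.69 in the 7 other stretches of 30 kb. In single-end lists it was 0.75 over 149 pairs, against 0.64 elsewhere, and 1 of the 7 stretches reached the same value. These are descriptions across positions, which share libraries and neighbours and are not replicates. A percentile at least 25 points higher in H2A.Z than in total chromatin was found for 9 of 141 pairs, or 6.38% (3.39 to 11.7%), against 15.0% of all pairs on the chromosome. A percentile at least 25 points lower was found for 17 pairs, or 12.1% (7.67 to 18.5%), against 16.3%. In the 7 stretches these shares ran from 5.23 to 27.9% and from 9.30 to 26.1%, so the interval lay within their range for both.

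**Figure D4:**
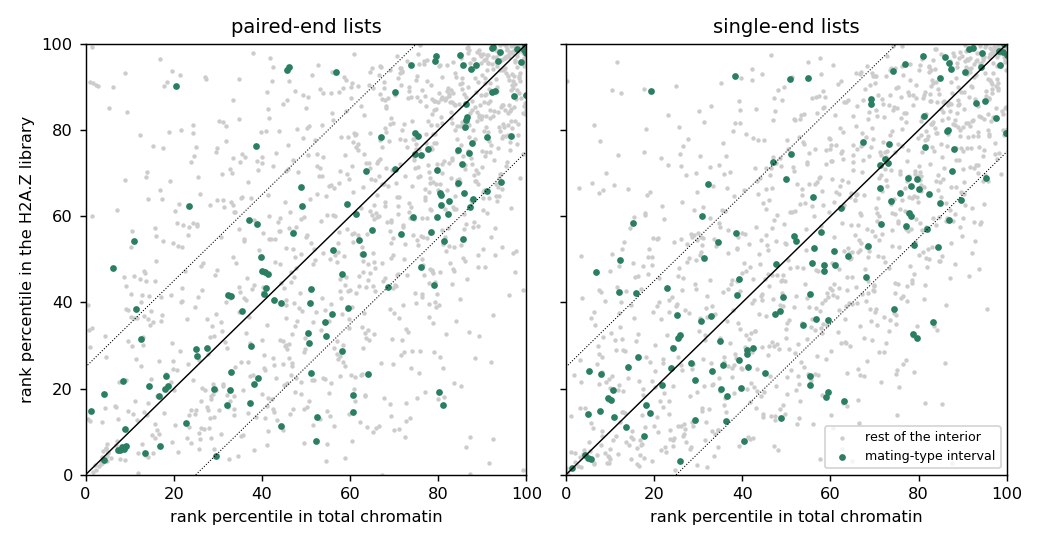
Rank percentile of mutually nearest positions in total chromatin (horizontal) and H2A.Z (vertical), for the interval (green) and the rest of the interior (grey), in paired-end and single-end lists. The solid line marks equal percentiles and dotted lines a difference of 25 points, which 9 of the 141 green paired-end pairs exceed upward and 17 downward.

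Near MAT the H2A.Z percentiles were mostly the lower ones. All 6 paired-end pairs between 198.5 and 201.5 kb had a lower percentile in H2A.Z, by 0.808 points at the isolated centre and by 42.0 at the edge position near 201150. From 200 to 205 kb 20 of 23 pairs were lower, with a median difference of -16.7 points (-22.0 to -7.63) and median percentiles of 56.2 in total chromatin and 40.0 in H2A.Z. In single-end lists 3 of 4 pairs at MAT and 15 of 21 from 200 to 205 kb were lower, the latter with a median of -13.0 points and an interval that includes 0 (-20.6 to 0.982). Over the interval the median was -2.92 points (-8.44 to -0.808), against -2.20 elsewhere. Most pairs were lower in H2A.Z in any case. These were 85 of 141 paired-end pairs in the interval and 847 of 1555 on the whole chromosome. In single-end lists they were 85 of 149 and 817 of 1531. Lower H2A.Z percentiles were not confined to this locus, since the stretch of 30 kb from 215 kb had a median of -12.5 points.

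**Figure D5:**
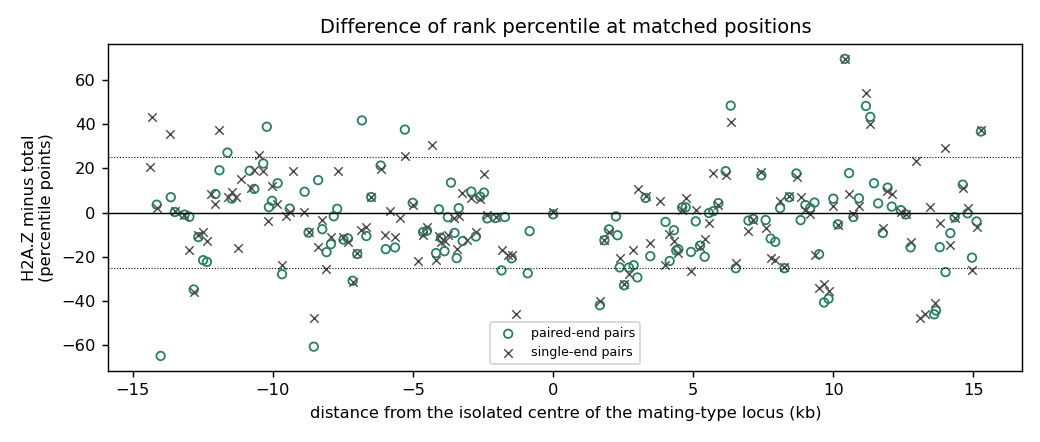
Difference of rank percentile, H2A.Z minus total, in percentile points at mutually nearest positions, by distance in kb from the isolated centre at MAT; circles are paired-end and crosses single-end pairs, and dotted lines mark 25 points. Points right of MAT up to 5 kb lie mostly below 0, with a median of -16.7 in the window from 200 to 205 kb, and the highest point, 69.7, lies about 10 kb to the right.

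Single pairs departed much further, and 10 were named by the size of their difference, 5 in each direction. At 209892 the total position ranked 1869 and its H2A.Z partner at 209903 ranked 221, which are percentiles of 20.6 and 90.3. The single-end lists gave 19.3 and 89.0. The pair at 205820 had 46.3 in total chromatin and 94.7 in H2A.Z, and that at 210646 had 45.7 and 94.0. At 210801 they were 10.9 and 54.3. The pair at 192659, with 6.21 and 48.0, did not repeat in single-end data, where the nearest centres had 49.3 and 41.3.

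Of the pairs lower in H2A.Z, the total position at 185476 had a percentile of 81.1 and its partner 18.1 bp away had 16.1, but no H2A.Z single-end centre lay within 93.9 bp of that partner. The pair at 190941 had 80.1 and 19.2, and in single-end lists 79.7 and 31.8. The pairs at 213083 and 213147, with 60.7 against 14.5 and 52.3 against 7.87, faced a single centre at 213114 in the total single-end list, which had 59.0 against 18.0 in H2A.Z. The last of the 5 was the first position right of the empty part, at 201150. These pairs were picked for their difference, so their values are a description.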

How the data were processed

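For each library the authors made 1 paired-end and 1 single-end list, as the list names say. The series title names PING, which models reads as a mixture of nucleosomes, and BWA, SAMtools and sacCer2 appear per the submitters' processing notes. Their versions, any filter and the handling of reads with several matches: not given in the sources used here. Centres, peak distances, variances, standard errors and region bounds are deposited in bp or squared bp, the mixing weight as a fraction from 0 to 1 and the score on a scale of the authors' own, per the file headers. Scores were used only as ranks within a list, since no scale links the lists.

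Comparisons used pandas 2.3.3, numpy 2.4.6 and scipy 1.17.1 under Python 3.11.15. A distance belongs to a region when both its centres do. Matches required 20 bp, and rank comparisons mutually nearest centres. A fractional identifier was read as deposited, and one was called out of order when it differed by more than 20 from the running median of 5 whole ones. Shares carry Wilson and medians order-statistic 95% intervals. With 1 library per group no test was possible. The functions for matched share, spacing and rank difference were tested on simulated lists of evenly spaced centres, unlike the lists here. Those for stretches, runs, windows, overlaps and identifiers were not tested. Named positions are the 5 highest-scoring, the 5 longest stretches, the 5 largest rank differences in each direction, the 5 centres beside the MAT stretch (not all are printed) and the extremes of fuzziness. The interval, the lists and these rules were chosen with earlier results of these data known, and the comparison with other windows and stretches was added after seeing the data. Of the 8 gene names looked up, 8 were in the R64 table. A genome sequence was not used here.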

Additional observations from a re-analysis of the deposited data

How the results depend on the processing

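Of 118 alternative values for 22 results, 86 fell inside the 95% interval given for the main value (for counts and densities, within 1.5 times of it), and 32 moved. No paired analysis was possible because there is 1 library per group, and no library could be left out. The spacing median was 162 bp in both total single-end and total positions without overlaps (those within 100 bp of a higher-scoring one), and 161.75 bp in the upper 75% of scores. For H2A.Z it was 161.65, 160.4 and 161.9 bp. Without overlaps the interval was no longer wider spaced than the rest (164.1 and 164.0 bp). The fuzziness median was 29.5 bp in single-end lists and 24.9 bp in the upper 75% of scores for total, and 30.7 and 27.1 bp for H2A.Z. The peak distance was 125.1 bp from 190000 to 210000 for total and 128 bp in single-end lists for H2A.Z. The top 20% held 22.0% of total positions. The H2A.Z share matched to total was 88.7% in single-end lists (82.3% elsewhere) and 52.3 and 94.9% with match distances of 10 and 50 bp. The reverse share was 87.6, 49.3 and 92.3%, and 75.9% without overlaps. Single-end positions matched to paired-end ones made up 68.2 and 98.2% (total) and 69.0 and 98.2% (H2A.Z) at 10 and 50 bp. With 15 percentile points 12.1% of pairs were higher and 29.1% lower, and in the upper 75% of scores 19.2% were lower. The Spearman correlation of matched ranks was 0.84 with a match distance of 10 bp. Stretches over 250 bp numbered 9 (total) and 10 (H2A.Z), and over 400 bp 2 and 2, both at MAT. The sign of interval minus rest held in 101 of the 118 and changed in 17. It changed in both libraries for spacing without overlaps, for fuzziness in single-end lists and for peak distance from 190000 to 210000. In 4 of 6 settings it changed for the H2A.Z share in the top 10%. The cause was not tested. Leaving out the MAT segment, a setting added after seeing the data, moved 0 of the values it was applied to. It was not applied to density, spacing, empty stretches or the match of single-end to paired-end positions.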

Other observations

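Few paired-end positions lay more than 73 bp from any centre of the other library. Neighbouring centres of the interval lay a median of 142 bp (total) and 150 bp (H2A.Z) apart. A low count at this distance was therefore likely in advance. Within 20 bp a centre of the other library was found for 71.6% of H2A.Z and 69.9% of total positions. In the interval 5 of 197 H2A.Z paired-end positions lay more than 73 bp from any total paired-end centre, or 2.54%, against 2.76% in the rest of the interior. They were at 190439, 193138, 197330, 209754 and 210512, and their rank percentiles ran from 0.309 to 4.07. Of 209 total positions 7 lay as far from any H2A.Z centre, or 3.35%, against 2.30% elsewhere. The strongest of these was at 206175, with a percentile of 31.7, and the total single-end list had the same kind of position at 206180. In single-end lists 6 of 170 total positions and 3 of 168 H2A.Z positions lay as far apart. The total one at 185474, ranked 413 at a percentile of 78.1, lay 114 bp from any H2A.Z single-end centre. The distance of 73 bp was chosen after seeing the data.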
